A study of Mus musculus with 9 samples.

Results

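The interferon response genes of the mouse lung were examined in an IL-33 model of airway inflammation, as 42 genes chosen by name among the 34638 genes of the expression table. They comprised 25 antiviral effectors that are classical targets of type I interferon, 4 transcription factors, 10 GTPases known as targets of interferon-gamma, and 3 genes of the immunoproteasome and peptide transport. Each gene had 1 row in the table, and all 42 passed the filter on low values, a mean of at least 0.5 FPKM (reads scaled by gene length and library size) over the 9 mice. The question put to them was whether type I targets and interferon-gamma GTPases moved alike when IL-33 was given and when LM8, an inhibitor of the adaptor protein MyD88, was added.

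Lung RNA was sequenced from 9 wild-type C57BL/6 mice, 3 in each of 3 groups. Control mice (CON) were challenged with phosphate buffered saline, and IL-33 mice received recombinant mouse IL-33 into the trachea at 0.5 µg per mouse from day 0 to day 3, with lungs collected the day after the final challenge. The IL-33+LM8 mice received LM8 at 10 mg/kg by the intraperitoneal route before the same IL-33 challenges. LM8 and IL-33 were therefore given together in that group. A group given LM8 alone was not analysed here, and whether the other groups had a vehicle injection is not given in the sources used here. The study's methods describe the CON and IL-33 mice as female. The 3 comparisons share mice, since the IL-33 mice stand in both the IL-33 against CON and the IL-33+LM8 against IL-33 comparison and the CON mice in both comparisons against CON.

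Interferons signal through JAK kinases and STAT proteins. Type I interferons act through the receptor chains Ifnar1 and Ifnar2 and lead STAT2 and IRF9 to the interferon-stimulated response element (ISRE) of antiviral genes. Interferon-gamma, made mainly by natural killer (NK) and T cells, acts through Ifngr1 and Ifngr2 and on promoters through the gamma-activated site (GAS), often with IRF1 as a second step. In the lung, type I targets restrict respiratory viruses, whereas the guanylate-binding proteins and immunity-related GTPases attack vacuoles that hold intracellular pathogens. IL-33 itself signals through its receptor ST2 and MyD88, and MyD88 is also the adaptor by which Toll-like receptors 7 and 9 reach IRF7.

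The sequences that distinguish these routes were looked for in the RefSeq promoters of build GRCm38.p6, which run from 250 bases before to 50 bases after a gene's start. Promoters were matched for 32 of the 42 genes. Those without one were Mx1, Mx2, Oas2, Usp18, Rtp4, Parp14, Zbp1, Gbp6, Gbp9 and Iigp1. The ISRE core was searched as GAAANNGAAA on both strands and GAS as TTCNNNGAA, which reads the same on both strands. Matches of the ISRE core can overlap each other. Each line below gives the 150 bases before a gene's start, 5′ to 3′ on the gene's strand, with the matched letters in capitals. Oas3 (chr5:120777660-120777809, minus strand) and Gbp7 (chr3:142530186-142530335, plus strand) are shown as the effector and the GTPase with a promoter whose level differed most between IL-33 and CON mice. Isg15 (chr4:156200819-156200968, minus strand), Igtp (chr11:58199406-58199555, plus strand) and Irf1 (chr11:53769864-53770013, plus strand) are shown for overlapping ISRE cores, for a GAS beside an ISRE core, and for a GAS alone.
Oas3: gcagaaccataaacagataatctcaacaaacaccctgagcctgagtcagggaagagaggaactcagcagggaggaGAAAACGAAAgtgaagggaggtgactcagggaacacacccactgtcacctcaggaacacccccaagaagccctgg
Isg15: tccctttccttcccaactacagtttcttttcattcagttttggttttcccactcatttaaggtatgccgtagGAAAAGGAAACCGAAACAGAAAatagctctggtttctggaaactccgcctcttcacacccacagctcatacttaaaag
Gbp7: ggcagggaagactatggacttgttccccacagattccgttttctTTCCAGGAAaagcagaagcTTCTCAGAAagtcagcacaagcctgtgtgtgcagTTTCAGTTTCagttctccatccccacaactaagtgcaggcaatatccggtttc
Igtp: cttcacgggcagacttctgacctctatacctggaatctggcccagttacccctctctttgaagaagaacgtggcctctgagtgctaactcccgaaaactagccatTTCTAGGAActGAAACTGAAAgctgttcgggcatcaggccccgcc
Irf1: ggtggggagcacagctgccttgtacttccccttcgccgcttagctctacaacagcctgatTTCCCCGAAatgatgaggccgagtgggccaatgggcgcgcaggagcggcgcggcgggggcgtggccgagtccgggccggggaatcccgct

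The ISRE core in Oas3 begins 75 bases before the gene's start. In Isg15 the 3 overlapping cores begin 66, 72 and 78 bases before it. Gbp7 holds an ISRE core at 53 bases and a GAS at 87 and at 106 bases, and Igtp holds an ISRE core at 34 bases and a GAS at 45 bases. Over the whole window, 11 of 22 effector promoters (50%) and 6 of 8 GTPase promoters (75.0%) held an ISRE core, against 3.44% of all 32851 promoters in the RefSeq table. A GAS was held by 5 effector promoters (22.7%) and 3 GTPase promoters (37.5%), against 8.30% of all promoters. Some genes had more than 1 promoter. Counted by gene, 10 of 18 effectors and 6 of 7 GTPases had a promoter with an ISRE core. The ISRE core was thus found in both groups and did not separate type I targets from GTPases. None of the 3 antigen-processing promoters held the ISRE core, and 1 of them, that of Psmb8, held a GAS. The windows of Psmb9 and Tap1 overlap on opposite strands and are not separate sequences.

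**Figure D1:**
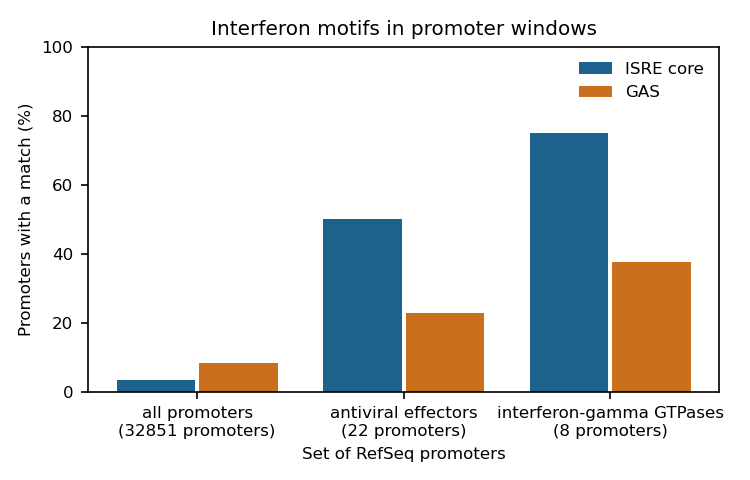
Percentage of RefSeq promoters with at least 1 match to the ISRE core or to GAS, for all promoters, the antiviral effectors and the interferon-gamma GTPases. The ISRE core was found in 50% of effector and 75.0% of GTPase promoters against 3.44% of all, with only 22 and 8 promoters in the gene groups.

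Between 53877663 and 90607218 reads per mouse were counted on genes. Counts were compared with edgeR's quasi-likelihood test on the 6 mice of each comparison, with 16829 genes tested in IL-33+LM8 against CON and 16831 in each of the others. A gene is said to have risen or fallen where its Benjamini-Hochberg adjusted p was under 0.05, and to have been called where the change was 2-fold or more as well. For 1 gene taken alone, the smallest p that exact permutation of 3 mice against 3 allows is 0.1, so the p-values below rest on the model across all genes. The lowest count of any of the 42 genes in any mouse was 143, for Oasl1 in CON replicate 1. The median log2 fold change of all genes tested was 0.00 in IL-33+LM8 against CON and -0.01 in each of the others. In whole lung, more cells of a type and more RNA per cell cannot be told apart. Alveolar, airway and endothelial markers were detected in every mouse, with lower sums in the IL-33 mice. The summed FPKM of 7 alveolar type 2 genes was 13290 to 14374 in CON, 7135 to 7357 in IL-33 and 11706 to 12877 in IL-33+LM8 mice. That of 6 ciliated and club cell genes was 21696 to 23742, 8496 to 9537 and 17118 to 18496. Such sums weigh the most abundant genes. With IL-33, 4 of the 7 alveolar type 2 genes fell and 3 did not pass, with a median log2 fold change of -0.30. Of the 6 ciliated and club cell genes 5 fell, with a median of -1.14. Of all genes tested, 27.2% fell with IL-33.

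With IL-33 a subset of antiviral genes rose at least 2-fold, while the interferon-gamma GTPases changed by less than 2-fold and more of them fell than rose. Of the 42 genes, 9 were called higher and 0 were called lower, where 10.8% of all genes tested were called higher and 6.24% lower. With no minimum fold change 23 genes rose and 7 fell, against 27.4% and 27.2% of all genes. The 9 called genes were Oas3, Mx1, Oas1a, Zbp1, Oasl1, Isg15 and Rsad2 among the effectors, the transcription factor Irf7 and the immunoproteasome subunit Psmb8. No GTPase was called.

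**Figure D2:**
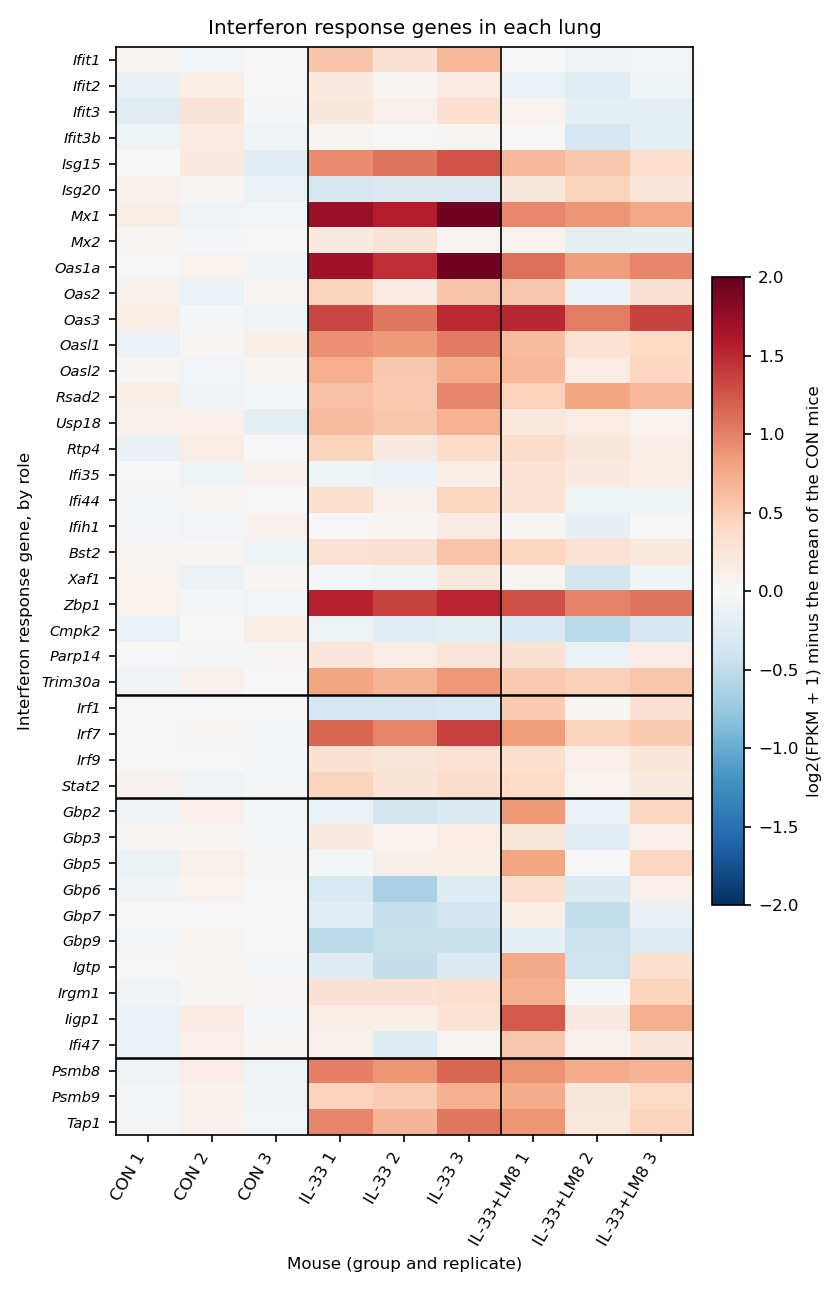
Level of each of the 42 genes (rows, grouped as effectors, transcription factors, GTPases and antigen processing) in each mouse (columns), as log2(FPKM + 1) minus the mean of the CON mice. Mx1, Oas1a, Oas3 and Zbp1 stand out in the IL-33 mice, and the GTPase block is darkest in IL-33+LM8 replicate 1.

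The effectors led the response to IL-33. Oas3, a synthetase of the short oligoadenylates that activate RNase L, measured 0.549, 0.395 and 0.368 FPKM in the CON mice and 2.63, 1.98 and 3.02 FPKM in the IL-33 mice. Every IL-33 mouse was above every CON mouse, and the log2 fold change was 2.53 ± 0.22 (SE; n = 3 per group; edgeR adjusted p = 7.99e-05). Mx1, a gene of the dynamin-like GTPase class, measured 1.61, 1.31 and 1.33 FPKM in CON mice and 6.97, 6.14 and 8.26 FPKM in IL-33 mice. Its log2 fold change was 2.32 ± 0.15 (edgeR adjusted p = 2.01e-05), the groups being well apart. Oas1a, another oligoadenylate synthetase, measured 5.18, 5.51 and 4.86 FPKM in CON mice and 18.9, 15.9 and 22.7 FPKM in IL-33 mice. The log2 fold change was 1.88 ± 0.14 (edgeR adjusted p = 3.43e-05). Of the stretches of 31 bases in Oas1a transcripts, 68.8% also occur in another gene, mostly Oas1g, so reads of the 2 genes may have been exchanged. Oas1g itself was called higher, by 2.29 on the log2 scale.

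Zbp1 and Isg15 are described next because of their values. Zbp1, a sensor of Z-form nucleic acid that can start necroptosis, measured 2.86, 2.63 and 2.56 FPKM in CON mice and 9.67, 8.38 and 9.57 FPKM in IL-33 mice. Its log2 fold change was 1.77 ± 0.10 (edgeR adjusted p = 8.32e-06), with no overlap between groups. Isg15, a ubiquitin-like modifier, measured 11.6, 13.4 and 9.85 FPKM in CON mice and 23.1, 25.3 and 28.9 FPKM in IL-33 mice. The log2 fold change was 1.15 ± 0.15 (edgeR adjusted p = 0.00053). Oasl1, which restrains the translation of Irf7, had a log2 fold change of 1.48 ± 0.18. Rsad2, which encodes the antiviral enzyme viperin, had 1.03 ± 0.19 and dropped under the 2-fold minimum without CON replicate 2 (0.97), CON replicate 3 (0.99) or IL-33 replicate 3 (0.83).

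The other effectors moved little. In all, 16 of the 25 rose and 1 fell, against 27.4% and 27.2% of all genes, and 8 passed in neither direction. The median log2 fold change of the 25 was 0.43. Bst2, the most abundant effector, encodes tetherin, which holds budding virus at the cell surface. It measured 58.7, 57.2 and 52.8 FPKM in CON mice and 68.7, 69.3 and 84.1 FPKM in IL-33 mice. It rose by 0.39 ± 0.10 on the log2 scale (edgeR adjusted p = 0.0103), less than 2-fold. Smaller rises were also found for Trim30a (0.84), Oasl2 (0.73), Usp18 (0.68), Ifit1 (0.56), Oas2 (0.47), Ifi44 (0.43), Rtp4 (0.36) and Parp14 (0.22). Of these Ifi44 passed in 3 of 13 alternative fits, with adjusted p between 0.00719 and 0.115. Usp18 removes Isg15 from proteins and dampens the type I receptor, and Ifit1 binds viral RNA. Members of 1 family differed in their values: Mx1 was called while Mx2 did not pass the test, and Ifit1 rose while Ifit2, Ifit3 and Ifit3b did not pass. The difference between family members was not tested, and Ifit3 and Ifit3b share 61.8% and 55.2% of their 31-base stretches with another gene. Isg20, an RNA exonuclease, was the effector that fell. It measured 20.2, 19.8 and 17.3 FPKM in CON mice and 14.9, 15.4 and 15.4 FPKM in IL-33 mice, a log2 fold change of -0.33 ± 0.08 (edgeR adjusted p = 0.0105).

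The transcription factors divided in direction. Irf7, the factor that amplifies type I interferon production, measured 7.07, 7.21 and 6.88 FPKM in CON mice and 16.8, 14.9 and 19.8 FPKM in IL-33 mice. It was called higher with a log2 fold change of 1.28 ± 0.11 (edgeR adjusted p = 6.11e-05). Irf1, which serves interferon-gamma signaling, was the most abundant of the 4 and moved the other way. Its FPKM was 28.1, 28.5 and 28.3 in CON mice and 21.9, 22.3 and 22.8 in IL-33 mice, a fall of 0.35 ± 0.04 on the log2 scale (edgeR adjusted p = 0.000337) with no overlap between groups. Stat2 and Irf9, partners in the type I complex, rose by 0.38 and 0.30.

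The GTPases stayed close to control levels in IL-33 mice. Of the 10, 5 fell and 1 rose, against 27.2% and 27.4% of all genes, and 4 did not pass. The median log2 fold change was -0.15. Gbp2, the most abundant of them, measured 26.8, 30.2 and 27.3 FPKM in CON mice and 25.4, 21.5 and 23.0 FPKM in IL-33 mice, a log2 fold change of -0.27 ± 0.08 (edgeR adjusted p = 0.0184). The largest fall was that of Gbp9, at 20.3, 21.9 and 21.0 FPKM in CON mice and 14.3, 15.2 and 15.1 FPKM in IL-33 mice, a log2 fold change of -0.50 ± 0.05. The other guanylate-binding proteins to fall were Gbp6 (-0.46) and Gbp7 (-0.39), and the immunity-related GTPase Igtp fell as well (-0.35). Irgm1, which regulates the other immunity-related GTPases, rose by 0.35. With all 9 mice in 1 fit 3 of the 10 fell and 0 rose, and without CON replicate 2 there were 3 that fell and 2 that rose. Of the 31-base stretches of Gbp6, 74.2% occur in another gene, so its counts are uncertain.

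The antigen-processing genes rose together. Psmb8, a catalytic subunit of the immunoproteasome, measured 14.7, 17.2 and 14.5 FPKM in CON mice and 32.0, 29.4 and 35.5 FPKM in IL-33 mice, and was called with a log2 fold change of 1.06 ± 0.09 (edgeR adjusted p = 7.74e-05). Without IL-33 replicate 3 the change was 0.99, just under the minimum. Tap1, which carries peptides into the endoplasmic reticulum, rose by 0.96 and Psmb9, another catalytic subunit, by 0.62. All 8 further antigen-processing genes examined also rose, against 27.4% of all genes, with a median of 0.57 and 0 of them by 2-fold. They included H2-D1 (0.90), H2-K1 (0.86) and B2m (0.65), which form class I complexes.

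**Figure D3:**
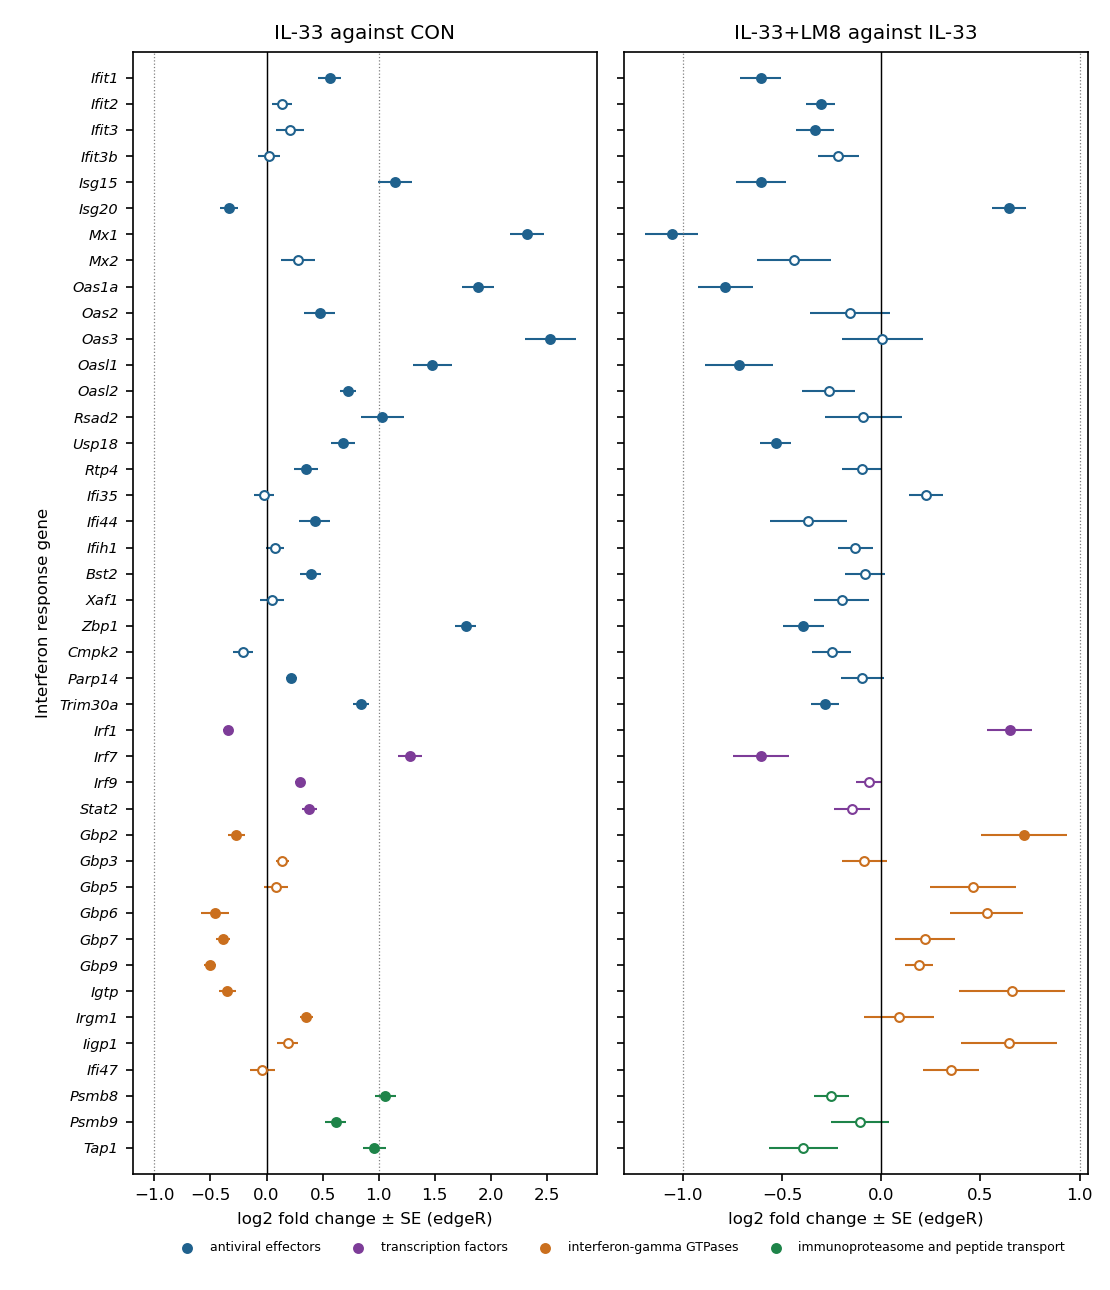
edgeR log2 fold change ± SE of each of the 42 genes in IL-33 against CON (left) and IL-33+LM8 against IL-33 (right), colored by role, with filled points for an adjusted p under 0.05 and dotted lines at a 2-fold change; the horizontal scales differ. The 3 mice of the IL-33 group enter both panels. Most effectors lie right of 0 on the left and left of 0 on the right, and 9 of 10 GTPases lie right of 0 on the right, of which Gbp2 passed the test.

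With LM8 added to IL-33, part of the antiviral set fell, mostly by less than 2-fold. Of the 42 genes, 1 was called lower and 0 were called higher, where 3.93% of all genes tested were called lower and 1.46% higher. With no minimum fold change 11 fell and 3 rose, against 13.9% and 12.6% of all genes. Of the 42, 6 fell without IL-33 replicate 1 or IL-33+LM8 replicate 3 and 5 fell without IL-33 replicate 3, whereas 8 rose without IL-33+LM8 replicate 2 and 2 rose without any 1 of IL-33 replicates 1 and 2 or IL-33+LM8 replicates 1 and 3. The called gene was Mx1, at 3.72, 3.43 and 3.12 FPKM in the IL-33+LM8 mice, between the CON and the IL-33 mice with no overlap with either. Its log2 fold change against IL-33 was -1.06 ± 0.13 (edgeR adjusted p = 0.00123), and leaving out IL-33 replicate 3 (-0.93) or IL-33+LM8 replicate 3 (-0.98) brought it under the 2-fold minimum.

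Among the 25 effectors 10 fell and 1 rose, against 13.9% and 12.6% of all genes, and 14 did not pass. Their median log2 fold change was -0.27. Without IL-33 replicate 1 or 3, 5 effectors fell, and 6 fell without IL-33+LM8 replicate 3. Oas1a measured 12.2, 10.0 and 11.1 FPKM in IL-33+LM8 mice and fell by 0.79 ± 0.14 on the log2 scale (edgeR adjusted p = 0.00553). Isg15 measured 18.6, 17.3 and 14.9 FPKM and fell by 0.61 ± 0.13 (edgeR adjusted p = 0.0115). Ifit1 also fell by 0.61, Oasl1 by 0.72 and Usp18 by 0.53, and smaller falls were found for Zbp1 (-0.39), Ifit3 (-0.34), Ifit2 (-0.31) and Trim30a (-0.28). Oas3 did not follow them. It measured 3.06, 1.92 and 2.68 FPKM in IL-33+LM8 mice, overlapping the IL-33 mice, with a log2 fold change of 0.00 ± 0.20 (edgeR adjusted p = 0.992). Isg20 rose instead, to 22.4, 26.2 and 22.8 FPKM, a log2 fold change of 0.64 ± 0.08 (edgeR adjusted p = 0.0015).

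The interferon regulatory factors again took opposite directions. Irf7 measured 13.3, 9.94 and 10.6 FPKM in IL-33+LM8 mice and fell by 0.61 ± 0.14 on the log2 scale (edgeR adjusted p = 0.0171), and did not pass without IL-33 replicate 3 or IL-33+LM8 replicate 3. Irf1 measured 40.9, 28.8 and 35.1 FPKM and rose by 0.65 ± 0.11 (edgeR adjusted p = 0.00524). All 3 of these Irf1 values were above those of the IL-33 mice. Stat2 and Irf9 did not pass the test, nor did Psmb8 at 29.5, 26.5 and 25.4 FPKM, Psmb9 or Tap1.

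**Figure D4:**
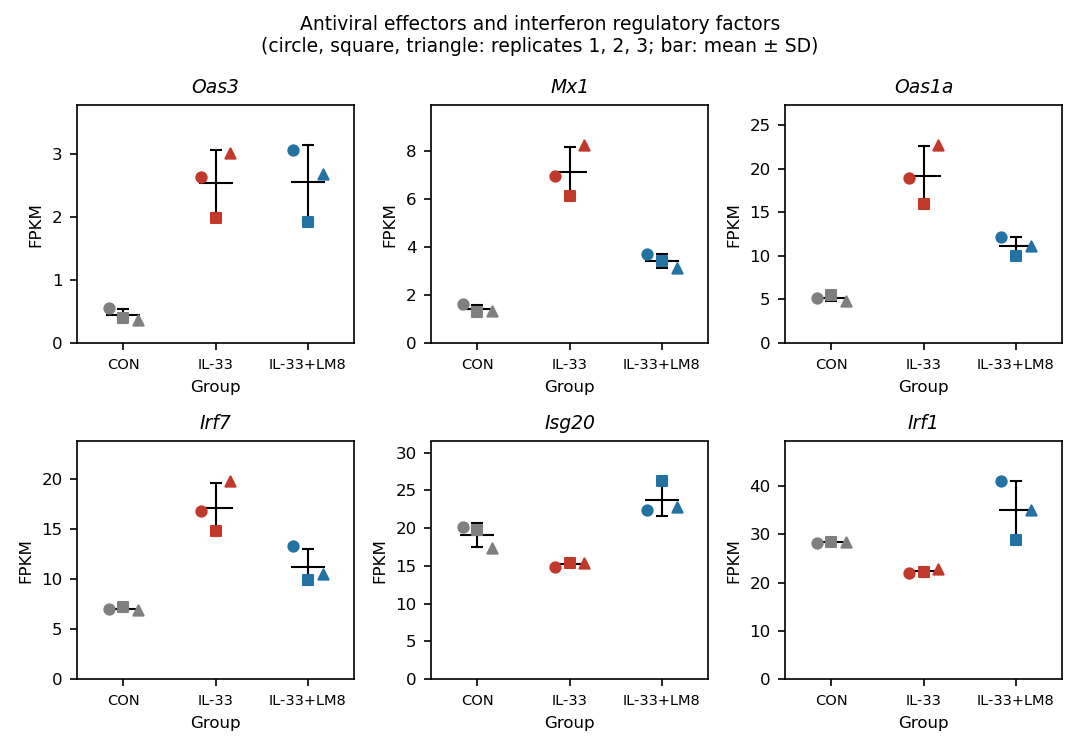
FPKM of Oas3, Mx1, Oas1a, Irf7, Isg20 and Irf1 in each mouse (points) with the group mean ± SD (bars, n = 3). Mx1, Oas1a and Irf7 were highest in the IL-33 mice and intermediate with LM8, Oas3 overlapped between the IL-33 and IL-33+LM8 mice, and Isg20 and Irf1 were lowest in the IL-33 mice.

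The GTPases differed widely between the 3 IL-33+LM8 mice. Gbp2 measured 51.3, 25.8 and 38.2 FPKM in replicates 1, 2 and 3, for a mean of 38.4 ± 12.7 (SD, n = 3), against an SD of 1.98 in the IL-33 mice. Its log2 fold change of 0.72 ± 0.22 passed the test narrowly (edgeR adjusted p = 0.0459), and passed in 6 of 14 alternative fits, with adjusted p between 0.00358 and 0.128. Igtp and Iigp1, chosen after their values were seen, had the same order of mice. Igtp measured 39.4, 16.7 and 28.8 FPKM against 19.1, 16.1 and 18.5 FPKM in IL-33 mice, and its log2 fold change was 0.66 ± 0.27 (edgeR adjusted p = 0.114). Iigp1 measured 22.5, 10.3 and 15.6 FPKM against 9.86, 9.95 and 11.2 FPKM, with 0.64 ± 0.24 (edgeR adjusted p = 0.0938).

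All 10 GTPases were highest in IL-33+LM8 replicate 1 and lowest in replicate 2, where 39.2% of all genes tested were highest in replicate 1 and 39.2% lowest in replicate 2. Compared with the IL-33 mice, 10 of 10 exceeded every IL-33 mouse in replicate 1, 9 in replicate 3 and 3 in replicate 2, where 36.8%, 35.7% and 34.8% of all genes tested did so in replicates 1, 3 and 2. Log2 fold changes of the group were positive for 9 of 10, with a median of 0.41 and a range from -0.09 (Gbp3) to 0.72 (Gbp2). In the main fit 1 of the 10 rose, where 12.6% of all genes rose. The outcome of the test depended on single mice. With DESeq2, with all 9 mice in 1 fit or with a replicate block 3 of the 10 rose. Without IL-33+LM8 replicate 2, 6 of the 10 rose and the median was 0.56. Without replicate 1 the median was 0.21 and 0 rose, and 0 also rose without replicate 3 or without any 1 of the IL-33 mice. The direction of Irgm1 turned without replicate 1 (-0.10) and that of Gbp3 without replicate 2 (0.03).

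Effectors and GTPases were set side by side in each mouse as the median difference of log2(FPKM + 1) from the CON mean. For the 25 effectors it was 0.45, 0.25 and 0.57 in the IL-33 mice and 0.31, 0.15 and 0.15 in the IL-33+LM8 mice. For the 10 GTPases it was -0.09, -0.31 and -0.10 in the IL-33 mice and 0.62, -0.16 and 0.28 in the IL-33+LM8 mice. The effector median was thus above control in every treated mouse, whereas the GTPase median was above control only in IL-33+LM8 replicates 1 and 3. Single effectors differed from their median. In IL-33+LM8 against CON, 8 of the 25 had a negative log2 fold change. In that comparison 11 rose, 1 fell and 13 did not pass. In IL-33+LM8 replicate 1 the effectors were also high, as 21 of 25 had their highest value of the 3 mice there.

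**Figure D5:**
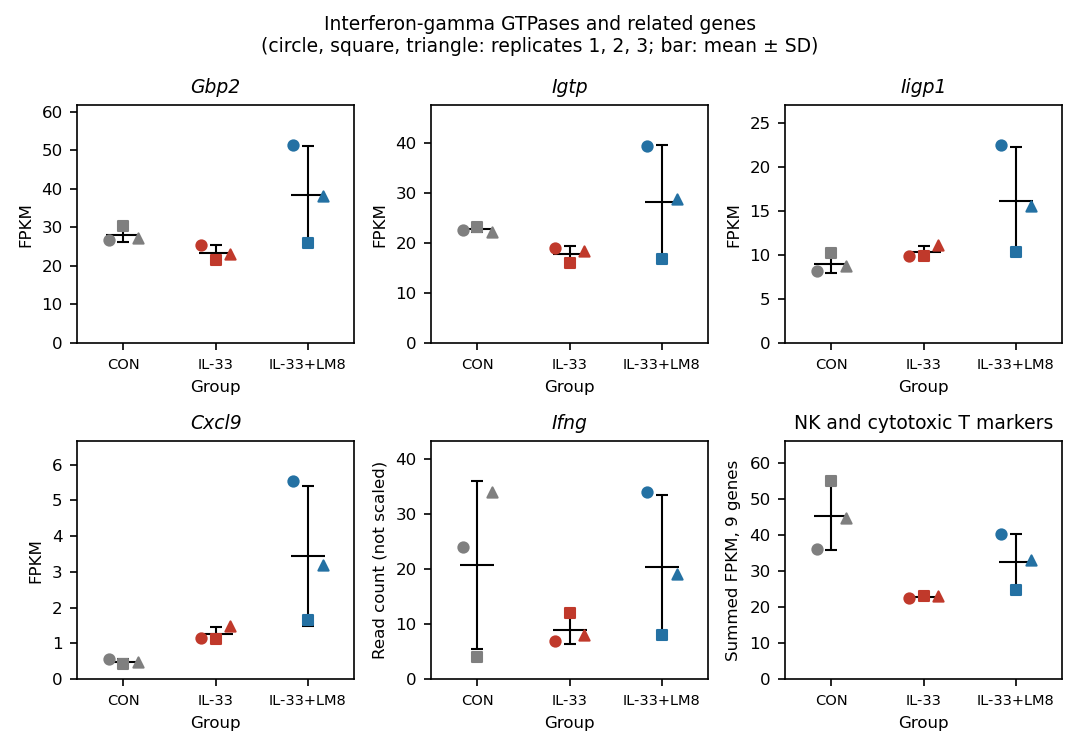
FPKM of Gbp2, Igtp, Iigp1 and Cxcl9, read counts of Ifng and the summed FPKM of 9 NK and cytotoxic T cell markers in each mouse (points), with the group mean ± SD (bars, n = 3). In the IL-33+LM8 group each panel is highest in replicate 1 (circle) and lowest in replicate 2 (square).

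The interferon pathway itself was read from lists of its ligands, receptors and regulators. Ifng, the ligand of the GTPase route, was near the limit of detection, with 24, 4 and 34 reads in CON mice, 7, 12 and 8 in IL-33 mice and 34, 8 and 19 in IL-33+LM8 mice. It was under the filter on low values, and without that filter it did not pass in any comparison (edgeR adjusted p = 0.407, 0.466 and 0.999). Ifnb1 had 3 reads in IL-33 replicate 2 and 0 in the other mice, so interferon-beta mRNA was at or under the limit of detection. Ifne, Ifnk and Ifnz had at most 6 reads in any mouse. Of the 21 interferon ligands listed, values were obtained for 5 only, and the levels of the others were not read.

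The CXCR3 ligands are chemokines induced by interferon-gamma. Cxcl9 measured 0.560, 0.422 and 0.486 FPKM in CON mice, 1.14, 1.12 and 1.5 in IL-33 mice and 5.54, 1.65 and 3.18 in IL-33+LM8 mice. It was called higher in both steps, with log2 fold changes of 1.34 ± 0.22 (edgeR adjusted p = 0.0017) and 1.46 ± 0.40 (edgeR adjusted p = 0.0336). Cxcl10 was called higher with IL-33 (1.92) and rose with LM8 added (0.60). Cxcl11 was under the filter, at most 0.08 FPKM. Ido1, a tryptophan-degrading enzyme, was called lower with IL-33 (-1.36) and higher with LM8 added (1.10).

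Of the receptors, 3 of 6 rose and 2 fell with IL-33, against 27.4% and 27.2% of all genes. Ifnlr1, the interferon-lambda receptor, was called lower (-1.05) and rose with LM8 added (0.76), while Ifnar1, Ifnar2 and Ifngr2 rose by less than 2-fold (0.28, 0.42 and 0.90). The kinase Jak2, which serves the interferon-gamma receptor, was called higher with IL-33 (1.11). The feedback inhibitors Socs1 (3.67) and Socs3 (1.36) were called higher with IL-33, and 0 of the 7 on their list were called lower. In all, 3 of the 7 rose and 3 fell, with a median log2 fold change of 0.05.

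With IL-33, 27.4% of all genes tested rose, 27.2% fell and 10.8% were called higher. Of 15 nucleic acid sensors and adaptors, 11 rose and 2 fell with IL-33, and 7 were called higher. The largest changes were those of Sting1 (2.27), the adaptor of DNA sensing, Irf5 (2.10), a factor downstream of MyD88, and Tlr9 (2.03), the receptor for unmethylated DNA. With LM8 added, 8 of the 15 fell and 0 rose, against 13.9% and 12.6% of all genes, and Tlr9 was called lower (-1.16). In the MyD88 complex 5 of 7 genes rose with IL-33 and 1 fell with LM8 added. Irak3, an inhibitory kinase of that complex, was called higher (1.09). Myd88 itself measured 18.2, 18.2 and 17.7 FPKM in CON mice, 25.2, 26.0 and 28.1 in IL-33 mice and 29.7, 31.4 and 28.7 in IL-33+LM8 mice. It rose with IL-33 (0.55) and did not pass with LM8 added (0.18).

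Other type I targets and GTPases widened the comparison. Of 45 further type I targets tested, 24 rose and 4 fell with IL-33, against 27.4% and 27.2% of all genes. Of these targets 13 were called higher and 1 lower, against 10.8% and 6.24% of all genes. The median log2 fold change of the 45 was 0.40. The largest were Slfn9 (2.60), Ifi204 (2.38), a DNA-binding protein, and Oas1g (2.29). With LM8 added 14 fell and 7 rose, against 13.9% and 12.6% of all genes, with a median of -0.19 for the 45. Slfn9 (-1.97) and Oas1g (-1.03) were called lower, and Ifitm1 (1.48), which hinders virus entry, and Ifit1bl2 (1.35) were called higher. Of 10 further GTPases tested, 2 rose and 5 fell with IL-33, Gbp2b being called higher (3.37) and Gbp10 lower (-1.12), and with LM8 added 3 rose, Gbp10 being called (1.04).

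In IL-33+LM8 against CON mice, 4 of the 42 genes were called higher and 0 lower, where 5.87% of all genes were called higher and 1.46% lower. With no minimum fold change 17 rose and 2 fell, against 16.3% and 13.4% of all genes; 9 rose without CON replicate 1 or 3, and 10 without CON replicate 2 or IL-33+LM8 replicate 3, while 20 rose with a replicate block. The called genes were Oas3 (2.55 ± 0.24), Zbp1 (1.40 ± 0.12), Mx1 (1.28 ± 0.15) and Oas1a (1.11 ± 0.11), all effectors. Irf7 (0.69), Psmb8 (0.82) and Isg15 (0.55) rose by less than 2-fold. The falls were those of Cmpk2 (-0.44), a mitochondrial nucleotide kinase, and Gbp9 (-0.30). Among the GTPases 1 rose, Iigp1 (0.85 ± 0.25, edgeR adjusted p = 0.0407), which passed in 6 of 14 alternative fits with adjusted p between 0.00798 and 0.118. With DESeq2 or without IL-33+LM8 replicate 2, 5 of the 10 GTPases rose, whereas 0 rose without any 1 of the CON mice or without IL-33+LM8 replicate 1 or 3. Of the 4 transcription factors 2 rose, 4 with a replicate block, where Irf1 (0.30, edgeR adjusted p = 0.0432) and Stat2 (0.24, edgeR adjusted p = 0.0106) passed as well.

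Cell type markers moved with several of these results. The summed FPKM of 9 NK and cytotoxic T cell markers ran from 36.1 to 54.9 in CON mice, from 22.6 to 23.2 in IL-33 mice and was 40.1, 24.6 and 33.0 in IL-33+LM8 replicates 1, 2 and 3, the order of the GTPases. That order was not particular to this list, since the sums of 5 of the 13 marker lists had it. The other lists were 7 monocyte markers (402, 335 and 359), 6 T cell markers (14.0, 10.3 and 11.6), neutrophil markers (1024, 876 and 892) and endothelial markers (769, 747 and 757). Most of the monocyte sum was Ace, at 300, 235 and 260 FPKM. Of the other monocyte markers Ly6c2, Treml4, Cx3cr1 and Csf1r had the order, while Ccr2 and Plac8 were highest in replicate 2. Of the 9 NK and cytotoxic T cell markers, 5 fell and 0 rose with IL-33, against 27.2% and 27.4% of all genes. With LM8 added 1 rose and 1 fell, against 12.6% and 13.9% of all genes, and 7 did not pass. Gzma rose (0.64), and Eomes was called lower (-1.11). The sum of 7 endothelial markers was also lowest in IL-33 mice (486 to 526, against 811 to 880 in CON and 747 to 769 in IL-33+LM8 mice), with 6 of 7 lower with IL-33 and 7 of 7 higher with LM8 added. The sum of 6 plasmacytoid dendritic cell markers, a cell type known for type I interferon, was highest in IL-33 mice (21.4 to 27.7, against 13.4 to 15.4 in CON and 15.6 to 16.2 in IL-33+LM8 mice), with 3 of 5 tested rising and 1 falling. Spib, which B cells also express, made up most of it in IL-33 mice, and without Spib the sum turned, at 9.79 to 12.4 in CON, 6.24 to 9.19 in IL-33 and 7.42 to 9.11 in IL-33+LM8 mice. The sum of 6 B cell markers was 37.9 to 48.2 in CON, 134 to 171 in IL-33 and 86.8 to 101 in IL-33+LM8 mice, while the sum of 8 neutrophil markers was 26.3 to 32.9 in CON, 189 to 212 in IL-33 and 876 to 1024 in IL-33+LM8 mice. The sum of 6 eosinophil markers was 3.82 to 4.45 in CON, 40.3 to 45.7 in IL-33 and 8.42 to 9.09 in IL-33+LM8 mice. It was highest in the IL-33 group, as were Mx1, Oas1a and Irf7, and this was not particular to eosinophil markers. The B cell sum was highest there too, as were those of 9 alveolar macrophage markers (342 to 394, 4230 to 4822 and 1945 to 2300) and 6 fibroblast markers (223 to 267, 511 to 582 and 222 to 277). Chil3 made up most of the macrophage sum in IL-33 mice. Of the 9 macrophage markers 4 rose and 4 fell with IL-33, with a median log2 fold change of -0.48. Of these markers 3 were called higher and 2 lower. Of the 6 fibroblast markers 3 rose and 3 fell with IL-33, with a median of 0.39. The macrophage and fibroblast sums thus did not stand for all genes of their lists. None of these lists had a marker at 0 in all mice, and their part in the interferon gene results was not tested.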

How the data were processed

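Lung RNA of 9 mice was sequenced in paired ends, and the deposited table gives raw read counts and FPKM per gene and mouse, both computed by the authors' sequencing company. The submitters' processing notes list Bowtie 0.12.2, HISAT2 2.0, StringTie 1.3.0 and build mm10 with no role. Coordinates in the table differed from those of GENCODE M21 (GRCm38) for all 42 genes, so its gene coordinates are not given. Whether counting used strand is not given in the sources used here. Groups came from the treatment labels.

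The deposited counts were tested with edgeR 4.0.16 (R 4.3.3, TMM normalization, quasi-likelihood test, Benjamini-Hochberg adjustment) on the 6 mice of each comparison, keeping genes whose FPKM averaged 0.5 or more over 9 mice and whose count was above 0. The SE is the log2 fold change divided by the square root of F. Deposited FPKM served for levels, with a pseudocount of 1 on the log2 scale. Alternatives used DESeq2 1.42.0, limma 3.58.1 on log2(FPKM + 1) or log2(FPKM + 0.1), other filters and scalings, all 9 mice in 1 fit, a fit with the replicate number as block, and fits without each mouse. Shares of all genes that rose or fell were taken from the main fits only. The scripts were checked on simulated counts. SDs cover the spread between the 3 mice of a group, and SEs rest on the edgeR model over the 6 mice of a comparison.

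The genes and lists were chosen with earlier results of these data known. Every-mouse values were given, for each role, for up to 3 called genes with the largest change, the most abundant gene and any called against its role's majority; for other pathway lists, up to 3 called genes per list and comparison were named, with Ifng, Ifnb1, Myd88 and the CXCR3 ligands. Isg15, Isg20, Zbp1, Igtp, Iigp1, Gbp9 and other genes with smaller changes were named after their values were seen. The counts of 1 pathway list are not reported here. Shared stretches of 31 bases were counted over GENCODE M21 transcripts. The deviations of same-numbered mice correlated at 0.31, 0.32 and 0.67 between CON and IL-33+LM8. They correlated at -0.42, 0.28 and -0.28 between CON and IL-33 and at -0.38, 0.22 and -0.40 between IL-33 and IL-33+LM8. Different-numbered mice correlated between -0.44 and 0.20 for CON and IL-33+LM8, and between -0.47 and 0.67 over all pairs of groups. The data therefore did not settle whether the numbers pair mice, and the main fits had no block. The labels name no shared litter or day.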

Additional observations from a re-analysis of the deposited data

How the results depend on the processing

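Counts of called genes depended most on the minimum fold change: with none, IL-33 against CON gave 23 higher and 7 lower, IL-33+LM8 against IL-33 gave 3 higher and 11 lower, and IL-33+LM8 against CON gave 17 higher and 2 lower. With the minimum mean FPKM raised to 5, which left 35 of the 42 genes, the counts were 5 higher, 0 lower with LM8 added and 2 higher against CON, and the IL-33 medians were 0.34 for effectors and -0.29 for GTPases. On log2(FPKM + 1) limma called 0 lower with LM8 added and 2 higher against CON. Leaving out 1 mouse, the genes called higher were 7 to 10 with IL-33 and 4 to 5 in IL-33+LM8 against CON, and those called lower with LM8 added 0 to 1. The effector median ranged from 0.37 to 0.57 with IL-33 and from 0.18 to 0.31 in IL-33+LM8 against CON, and the GTPase median from -0.20 to -0.067 and from 0.10 to 0.51, the low end of the last being without IL-33+LM8 replicate 1.

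Among single genes with LM8 added, Oas3 turned sign when IL-33 replicate 2 (-0.15) or IL-33+LM8 replicate 1 (-0.14) or 3 (-0.02) was left out, its own value being 0.00 and its highest 0.17. Irgm1 turned without IL-33+LM8 replicate 1 (range -0.10 to 0.28) and Gbp3 without IL-33+LM8 replicate 2 (range -0.19 to 0.031), and Rsad2 (-0.20 to 0.13), Oas2 (-0.34 to 0.03), Bst2 (-0.14 to 0.03), Parp14 (-0.20 to 0.02) and Psmb9 (-0.28 to 0.0039) also turned without 1 mouse, in all 8 of the 42 genes. In IL-33 against CON 4 turned and in IL-33+LM8 against CON 7, and 0 of these genes had passed the test in the comparison where they turned. Of the 30, 14 and 19 genes that rose or fell in IL-33 against CON, IL-33+LM8 against IL-33 and IL-33+LM8 against CON, 22, 7 and 8 passed in every alternative fit. Same-numbered mice deviated together between CON and IL-33+LM8 mice, and not throughout in the other pairs of groups. Some differently numbered mice deviated together as well. The correlation was 0.65 for CON replicate 3 with IL-33 replicate 1 and 0.67 for IL-33 replicate 1 with IL-33+LM8 replicate 3. The numbers were therefore not shown to pair mice. With a replicate block 9 genes were called higher with IL-33, 1 lower with LM8 added and 4 higher against CON, and 3 of 10 GTPases rose with LM8 added.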
